A study of Homo sapiens with 6 samples.

Results

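The replication-dependent histone genes were compared between Jurkat cells given CXCL12 and Jurkat cells left unstimulated. The members are the genes whose platform annotation carries a symbol from H1-1 to H1-6, or H2AC, H2BC, H3C or H4C followed by a number, taking the brightest probe set of a symbol. The rule found 61 members among 17687 named genes, on an array of 21448 probe sets, and 0 member symbols had more than 1 probe set. They fall into 5 classes, with 6 members of H1, 14 of H2A, 17 of H2B, 9 of H3 and 15 of H4. RefSeq lists 69 genes with such symbols, and H2AC7, H2AC16, H2AC17, H2BC15, H3C4, H3C12, H3C14 and H3C15 had no named probe set here. On RefSeq's chromosomes, 49 members lie on chromosome 6, 11 on chromosome 1 and 1, H4C16, on chromosome 12.

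Jurkat is a human cell line established from an acute T-cell leukaemia, and CXCL12 is a chemokine that acts through the receptor CXCR4. Cells grown with 10% serum were kept without serum for 90 min in both groups. The untreated group (3 arrays) received nothing further, and the CXCL12 group (3 arrays) received 100 ng/ml for 15 min. The titles number the samples of each group as biological replicates, without saying that they came from separate cultures, so p-values measure only how these samples vary, part of which may be technical.

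Histones H2A, H2B, H3 and H4 form the core of the nucleosome around which DNA is wound, and the linker histone H1 binds where the DNA enters and leaves it. The replication-dependent genes supply these proteins while DNA is copied, so their transcripts are abundant in proliferating cells such as leukaemia lines and rise and fall with S phase. Most of these transcripts end in a conserved stem-loop, bound by the protein SLBP, in place of a poly(A) tail, and they are destroyed quickly when replication stops. The genes lie in clusters in which members of different classes alternate, and many copies of a class encode the same or almost the same protein.

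The classes share expression in S phase but differ in their promoters. To show these differences beside the expression values, the promoter of the member with the lowest log2 change of each class is printed here: H1-2 (chr6:26056471-26056630, minus strand), H2AC21 (chr1:149887966-149888125, minus strand), H2BC7 (chr6:26199356-26199515, plus strand), H3C10 (chr6:27809891-27810050, plus strand) and H4C4 (chr6:26189113-26189272, minus strand). The sequences are RefSeq's, build GRCh38.p14, and each holds the 160 bases before the transcript start, 5′ to 3′ in the direction of transcription. Capitals mark matches to 5 motifs, sought on both strands: CCAAT (read as ATTGG on the other strand), the octamer ATTTGCAT, the H1 box AAACACA, the H4 element GGTCCG and the TATA box sequence TATAAA. In these sequences 0 matches overlapped one another.
H1-2: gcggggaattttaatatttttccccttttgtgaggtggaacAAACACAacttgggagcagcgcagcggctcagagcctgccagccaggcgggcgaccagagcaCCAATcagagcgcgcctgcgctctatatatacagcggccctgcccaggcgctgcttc
H2AC21: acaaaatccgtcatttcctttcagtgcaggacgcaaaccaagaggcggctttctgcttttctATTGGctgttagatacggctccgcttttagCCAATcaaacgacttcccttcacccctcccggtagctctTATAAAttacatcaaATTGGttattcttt
H2BC7: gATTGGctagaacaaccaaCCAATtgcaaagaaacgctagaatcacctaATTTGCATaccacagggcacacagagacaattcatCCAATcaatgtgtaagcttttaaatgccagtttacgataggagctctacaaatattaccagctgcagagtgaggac
H3C10: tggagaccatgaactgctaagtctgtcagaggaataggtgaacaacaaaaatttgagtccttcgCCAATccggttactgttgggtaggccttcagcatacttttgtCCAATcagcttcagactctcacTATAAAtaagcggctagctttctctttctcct
H4C4: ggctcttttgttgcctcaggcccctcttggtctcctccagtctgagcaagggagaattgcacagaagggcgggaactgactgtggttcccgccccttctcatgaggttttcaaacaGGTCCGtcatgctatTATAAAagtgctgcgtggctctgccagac

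In the printed H1-2 promoter, AAACACA began 119 bases before the start and CCAAT 57 bases before it. The printed H2AC21 stretch held 3 matches to CCAAT and a TATAAA that began 29 bases before the start. In the longer stretch searched below, H2AC21 had 4 matches to CCAAT and 1 to the octamer. The printed H2BC7 stretch held 3 matches to CCAAT and the octamer ATTTGCAT, 111 bases before the start. H3C10 had 2 CCAAT matches and a TATAAA at 32 bases. H4C4 had neither CCAAT nor the octamer in this stretch, but GGTCCG at 44 bases and TATAAA at 29 bases before the start.

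The same letters were counted in the promoters of all members found in RefSeq's promoter table, 57 of 61, over 250 bases before and 50 after the start. H2AC12, H3C11, H4C1 and H4C3 were not among them. The H1 box was found in 6 of 6 H1 promoters, 1 of 13 H2A promoters and in 0 of 38 promoters of H2B, H3 and H4, against 5.76% of the 27305 genes with a promoter in the table. The octamer ATTTGCAT, the site of the POU factor OCT1 (POU2F1), was found in 14 of 17 H2B and 8 of 13 H2A promoters, in 0 of those of H1, H3 and H4, and in 1.8% of all promoters. The H2A and H2B counts are not independent. In 8 head-to-head pairs the starts lay 215 to 248 bases apart, so a single match in the shared stretch can be counted for both partners. CCAAT, the site of the factor NF-Y, was present in every H1, H2A, H2B and H3 promoter examined but in 3 of 13 H4 promoters, against 35.7% of all. GGTCCG, part of the conserved element beside the TATA box of H4 genes, was in 12 of 13 H4 promoters and in 11.2% of all. TATAAA was in 39 of 57 member promoters and in 12% of all. A match is a description of letters and not evidence of binding.

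**Figure D1:**
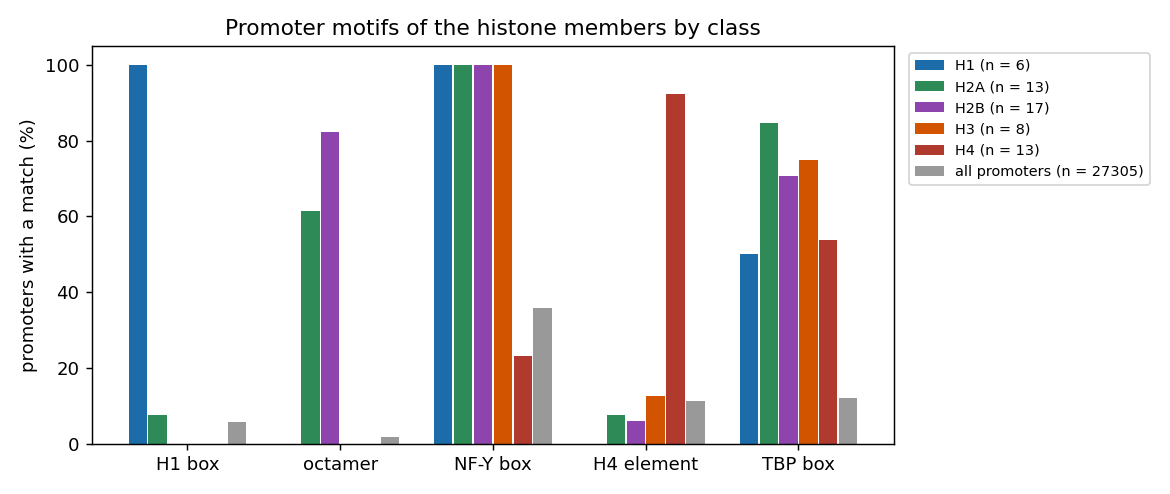
Share of promoters, in percent, that held at least 1 match to each motif, for the 5 histone classes and all promoters in the RefSeq table. H1 box is AAACACA, octamer ATTTGCAT, NF-Y box CCAAT, H4 element GGTCCG and TBP box TATAAA. The H1 box stood at 100% in H1 and at 7.69% or below in the other classes, and the NF-Y box at 100% in every class except H4 (23.1%).

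All 13 T cell markers checked, among them CD3E, LCK and TAL1, had mean log2 signals from 8.26 to 11.42. Of 17 markers of other cell types with a probe set, 4 (MS4A1, LYZ, KLRD1 and EPCAM) were left out as dim, and the other 13 passed the filter with means of up to 7.92 (the B cell gene CD79A). None of either list passed an adjusted p of 0.05. At an unadjusted limma p under 0.05 were CXCR4 among the T cell markers (change -0.37) and, among the others, NCAM1 (-0.35) and KRT18 (0.32), each with an adjusted p of 0.996. The summed linear signal of the T cell markers ran from 15294 to 15554 in untreated and from 14288 to 15247 in CXCL12 arrays, and that of the others from 1404 to 1496 and from 1335 to 1496. The part of other cells in the members' values was not tested. The arrays' median log2 signals lay between 6.18 and 6.22. Untreated replicate 1 stood apart from the rest, with a mean correlation with the other arrays of 0.982 against 0.987 to 0.989 for the other 5 arrays. Signals of different probe sets are not comparable as amounts of RNA, so changes are compared and levels are not ranked between genes.

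Of the 61 members, 53 passed the filter on dim probe sets (a mean log2 signal of at least 4.44, the 25th percentile of all probe sets) and were tested with limma. None passed an adjusted p of 0.05: 0 of 53 in either direction, beside 0.0124% of all 16086 probe sets tested, and the smallest adjusted p of a member was 0.996. At an unadjusted p under 0.05 there were also 0 members lower and 0 higher with CXCL12, beside 2.01% of all probe sets lower, 2.72% higher and 4.73% in either direction. The smallest unadjusted limma p was 0.0779, for H1-2. For 50 of the 53 tested members the 95% interval of the change lay within 1.5-fold either way, beside 89.9% of all probe sets, and the other members were H3C1, H4C4 and H4C16. The median half-width of a member's interval was 0.28 on the log2 scale, a 1.21-fold change, so smaller differences were not resolved with 3 arrays a group.

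The point estimates of the members leaned downward. Of the 53 tested members, 40 had a negative log2 change (CXCL12 minus untreated), which is 75.5% beside 49.3% of all probe sets, and the median change was -0.06 beside 0.00228. The members' changes ran from -0.36 (H4C4) to 0.30 (H3C1). The split moved with the scaling: 35 were negative after another round of quantile normalization or after cyclic loess (66%). Of all probe sets, 49.8% and 50.1% were then negative. After median centring 44 members were negative (83%), beside 55.3% of all probe sets. It was 32 of 53 without CXCL12 replicate 3 (60.4%), beside 51.0% of all probe sets, and the median was then -0.02. Without untreated replicate 1, the array that stood apart, 44 were negative, again beside 51.0% of all probe sets. However, 14 members then turned sign, 9 to negative and 5 to positive. The 3 CXCL12 arrays all lay below the 3 untreated arrays for 5 members (H1-2, H2AC21, H3C8, H4C12 and H4C13), beside 4.48% of all probe sets, and all above for 0, beside 5.05%. No member passed the test, so a lower level with CXCL12 was not established. Even for a true decrease, bulk RNA could not tell fewer cells in S phase from less histone RNA per cell.

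**Figure D2:**
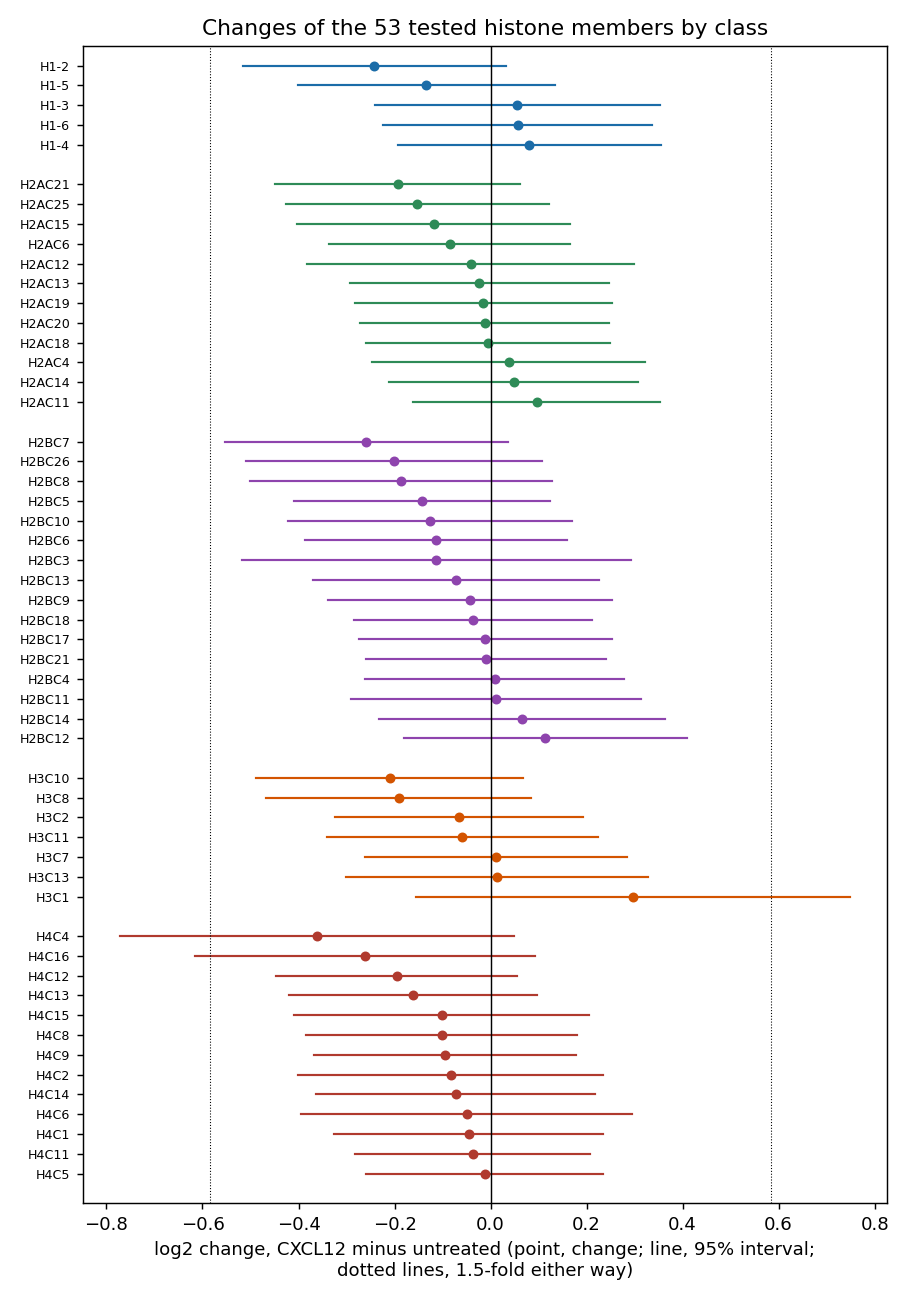
Log2 change (CXCL12 minus untreated) of each of the 53 tested members with its 95% interval from limma, grouped by class in the order H1, H2A, H2B, H3 and H4. Every interval includes 0, and 50 of 53 lie within the dotted lines at 1.5-fold either way.

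CXCL12 replicate 3 was the array on which these genes were most often lowest. It held the lowest of the 6 values for 28 of the 53 tested members (52.8%), beside 16.2% of all probe sets. By class these were 1 of 5 in H1, 4 of 12 in H2A, 11 of 16 in H2B, 4 of 7 in H3 and 8 of 13 in H4. The median member lay 0.17 below its own untreated mean on that array (-0.17), and at -0.02 and -0.00243 on CXCL12 replicates 1 and 2. The untreated arrays had medians of 0.0071, -0.02 and 0.05, so CXCL12 replicates 1 and 2 lay inside the untreated range. Untreated replicate 3 held the highest value for 21 members (39.6%), beside 11.8% of all probe sets.

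**Figure D3:**
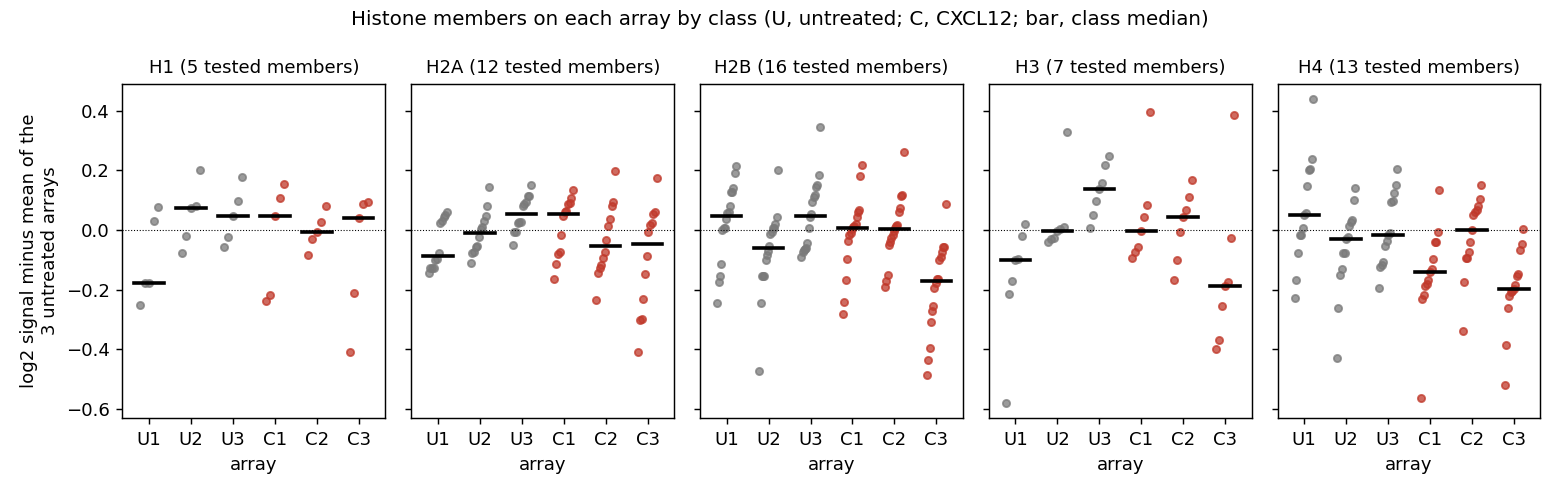
Log2 signal of each tested member minus its mean over the 3 untreated arrays, by array and class. Points are members and bars are class medians. On CXCL12 replicate 3 the medians of H2B, H3 and H4 stand at -0.17, -0.19 and -0.20, and those of H1 and H2A at 0.04 and -0.05.

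With all 6 arrays, the linker histone genes did not lean one way. Of 5 tested H1 members, 2 had negative and 3 positive changes, with a median of 0.06. Without untreated replicate 1, 5 of 5 were negative and the median was -0.07. H1-2, a linker histone made in most tissues, measured 9.14, 9.03 and 9.16 on untreated replicates 1, 2 and 3 and 8.87, 9.03 and 8.70 on the CXCL12 replicates. The groups did not overlap, although the highest CXCL12 value (9.028) lay just under the lowest untreated one (9.033). Its change was -0.24 (SE 0.13, 95% interval -0.52 to 0.03, limma adjusted p = 0.996), a 15.5% lower signal that did not pass, and -0.16 without CXCL12 replicate 3.

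H1-5 had 11.98, 11.88 and 11.85 on the untreated and 11.69, 11.93 and 11.69 on the CXCL12 arrays. CXCL12 replicate 2 lay among the untreated arrays, and the change was -0.13 (95% interval -0.40 to 0.13), or -0.21 without that array. H1-4 had 12.04, 12.30 and 12.32 on the untreated and 12.38, 12.21 and 12.32 on the CXCL12 arrays, with untreated replicate 1 the lowest. Its change of 0.08 (-0.19 to 0.35) was -0.00793 without that array. H1-3 showed the same array as its lowest: 8.93, 9.25 and 9.36 on the untreated and 9.29, 9.15 and 9.27 on the CXCL12 arrays, a change of 0.06, or -0.07 without untreated replicate 1. H1-6, the linker histone of the testis, had a probe set just above the filter, with group means of 4.98 ± 0.19 and 5.04 ± 0.02 (SD, n = 3 each). Its change was 0.06. Leaving out untreated replicate 1 gave -0.03, and leaving out the second untreated array gave 0.16.

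Among the H2A genes, 9 of 12 tested members had negative and 3 positive changes. The class median was close to 0 (-0.02), and 5 of 12 were negative after cyclic loess or another quantile normalization, where the median was 0.00753 and 0.02. H2AC21, one of the H2A genes on chromosome 1, had the lowest change of the class. It measured 10.79, 10.70 and 10.78 on the untreated and 10.59, 10.64 and 10.45 on the CXCL12 arrays, which did not overlap. The change was -0.19 (95% interval -0.45 to 0.06, limma adjusted p = 0.996). H2AC25, also on chromosome 1, had 8.98, 8.85 and 9.05 against 8.94, 8.82 and 8.66, with overlapping groups and a change of -0.15 (-0.43 to 0.12), or -0.08 without CXCL12 replicate 3.

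At the upper end of the H2A class, H2AC11 had 11.68, 11.86 and 11.89 on the untreated and 11.95, 11.90 and 11.87 on the CXCL12 arrays. The groups overlapped, and the change was 0.10 (95% interval -0.16 to 0.35), or 0.03 without untreated replicate 1, where its signal was lowest. The members with the brightest probe sets, H2AC14 and H2AC13, had changes of 0.05 (-0.21 to 0.31) and -0.02 (-0.29 to 0.25), and H2AC13 turned positive (0.00453) after cyclic loess. H2AC14 was at -0.02 without untreated replicate 1, and H2AC13 at 0.03 without untreated replicate 3. The other 7 tested H2A members ran from -0.12 (H2AC15) to 0.04 (H2AC4). H2AC15 was at -0.23 without CXCL12 replicate 1 and at -0.06 without CXCL12 replicate 2 or 3. H2AC4 was at -0.03 without untreated replicate 1 or CXCL12 replicate 3, and at 0.11 and 0.12 without untreated replicate 3 and CXCL12 replicate 2.

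In the H2B class 12 of 16 tested members had negative and 4 positive changes, with a median of -0.06. This median was -0.00522 without CXCL12 replicate 3, the array that held the lowest value for 11 of the 16. H2BC7 had 10.71, 10.62 and 10.56 on the untreated and 10.39, 10.58 and 10.15 on the CXCL12 arrays. CXCL12 replicate 2 lay between untreated replicates 2 and 3, so the groups overlapped. The change was -0.26 (SE 0.13, 95% interval -0.55 to 0.04, limma adjusted p = 0.996) and -0.15 without CXCL12 replicate 3.

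H2BC26 on chromosome 1 had 9.42, 9.06 and 9.15 on the untreated and 9.04, 9.17 and 8.82 on the CXCL12 arrays, with untreated replicate 1 above and CXCL12 replicate 3 below the other 4. Its change of -0.20 (95% interval -0.51 to 0.11) was -0.09 without untreated replicate 1 and -0.10 without CXCL12 replicate 3. H2BC12 had the highest change of the class, 0.11 (-0.18 to 0.41). Its untreated replicate 1 was at 11.82, below its other arrays (12.10 to 12.26), and without it the change was -0.00742, against 0.21 without untreated replicate 2. H2BC18, with a bright probe set, had a change of -0.04 (-0.28 to 0.21), or -0.00723 without untreated replicate 1 and -0.07 without untreated replicate 3. The other 12 tested H2B members ran from -0.19 (H2BC8) to 0.07 (H2BC14). H2BC8 was at -0.06 without CXCL12 replicate 3 and at -0.30 without CXCL12 replicate 1, and H2BC14 ran from -0.03 without CXCL12 replicate 2 to 0.16 without untreated replicate 1.

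Many H2A and H2B genes stand head to head and share the stretch between their starts. From the promoter table, 8 such pairs of members were found, with starts 215 to 248 bases apart, and both partners were tested in 6 pairs. The 2 partners had changes of the same sign in 5 of these 6. That count was 2 of 6 without untreated replicate 1, 3 without CXCL12 replicate 2, 4 without CXCL12 replicate 1 or 3, 5 without untreated replicate 3 and 6 without untreated replicate 2. H2AC25 and H2BC26 were at -0.15 and -0.20, and H2AC13 and H2BC13 at -0.02 and -0.07. H2AC14 and H2BC14 were at 0.05 and 0.07, H2AC11 and H2BC11 at 0.10 and 0.01, and H2AC20 and H2BC21 at -0.01 and -0.0091. H2AC6 and H2BC4 differed in sign, at -0.09 and 0.00838. None of these changes passed the test, so the pairs are a description of point estimates.

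Of 7 tested H3 genes, which mostly encode the replicative form H3.1, 4 had negative and 3 positive changes, with a median of -0.06. Without CXCL12 replicate 3 the median was 0.03. H3C10 had 8.44, 8.50 and 8.68 on the untreated and 8.45, 8.37 and 8.17 on the CXCL12 arrays. The groups overlapped through CXCL12 replicate 1, and the change was -0.21 (SE 0.13, 95% interval -0.49 to 0.07, limma adjusted p = 0.996), or -0.13 without CXCL12 replicate 3. H3C8 had 10.68, 10.63 and 10.67 on the untreated arrays, a narrow range, and 10.59, 10.56 and 10.26 on the CXCL12 arrays. The groups did not overlap, and the change of -0.19 (-0.47 to 0.09) was -0.09 without CXCL12 replicate 3, the lowest of the 6 arrays.

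H3C1 had the highest change of all tested members, and it rested on 1 array. It measured 7.46, 8.37 and 8.29 on the untreated and 8.44, 8.15 and 8.43 on the CXCL12 arrays, so untreated replicate 1 alone lay far below the rest. The change was 0.30 (SE 0.21, 95% interval -0.16 to 0.75, limma adjusted p = 0.996), and 0.00699 without untreated replicate 1, against 0.46 without untreated replicate 2. H3C11 had 11.62, 11.72 and 11.82 against 11.80, 11.72 and 11.47, a change of -0.06 (-0.34 to 0.22), or 0.04 without CXCL12 replicate 3 and -0.13 without CXCL12 replicate 1. H3C2, H3C7 and H3C13 had changes of -0.07, 0.01 and 0.01. Without untreated replicate 1, H3C7 and H3C13 were at -0.07 and -0.09, and H3C2 was at -0.00642 without CXCL12 replicate 3 and at -0.12 without CXCL12 replicate 2.

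**Figure D4:**
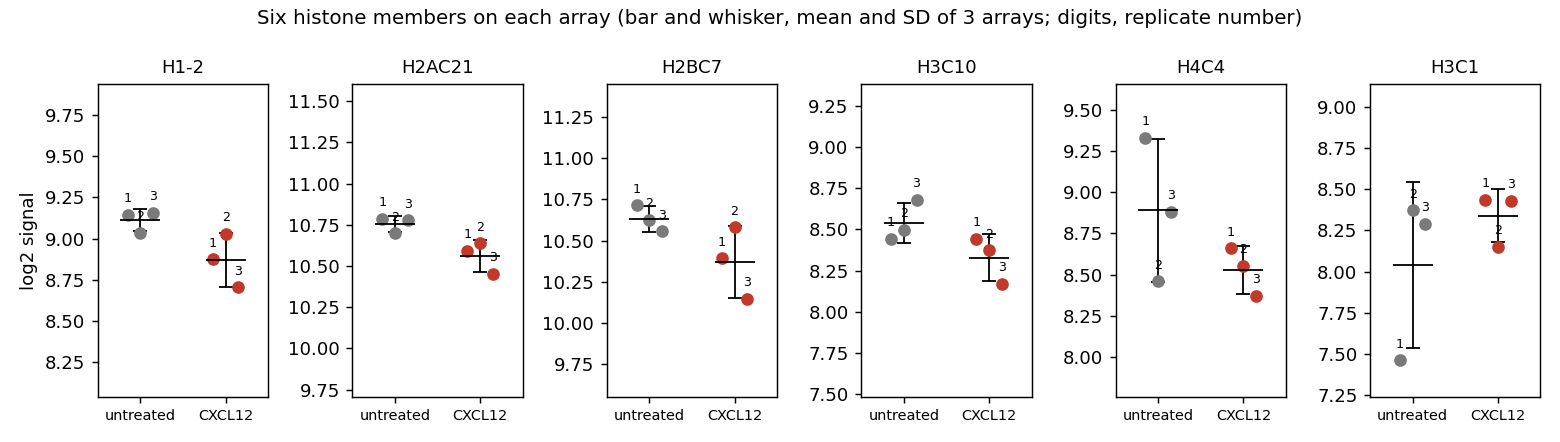
Log2 signal on each of the 6 arrays for the member with the lowest change in each class (H1-2, H2AC21, H2BC7, H3C10 and H4C4) and for H3C1, the member with the highest change. Points are arrays, digits their replicate numbers, and bars and whiskers the mean and SD of 3 arrays. Every vertical axis spans the same log2 range, and untreated replicate 1 stands apart for H4C4 (9.33) and H3C1 (7.46), in opposite directions.

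The H4 genes nearly all encode the same protein. Negative changes were seen in 13 of 13 tested members, beside 49.3% of all probe sets, with a median of -0.09. The members were measured on the same 6 arrays and copies can share probes, so they are not independent in this count. This count was 12 of 13 after cyclic loess, after another quantile normalization and with array weights, 10 without untreated replicate 1 and 11 without untreated replicate 2 or CXCL12 replicate 1 or 3. The median was -0.03 without untreated replicate 1, -0.05 without CXCL12 replicate 3 and -0.19 without CXCL12 replicate 2. On the 6 arrays the class median lay at 0.05, -0.03 and -0.02 in untreated replicates 1, 2 and 3 and at -0.14, 0.00105 and -0.20 in the CXCL12 replicates, so CXCL12 replicate 2 lay within the untreated range.

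H4C4 had the lowest change of all tested members, at 9.33, 8.46 and 8.88 on the untreated and 8.66, 8.55 and 8.37 on the CXCL12 arrays. The groups overlapped, since untreated replicate 2 was lower than CXCL12 replicates 1 and 2. The change was -0.36 (SE 0.19, 95% interval -0.77 to 0.05, limma adjusted p = 0.996), -0.14 without untreated replicate 1 and -0.58 without untreated replicate 2. H4C16, the lone member on chromosome 12, had 5.00, 4.68 and 5.14 against 4.37, 4.87 and 4.79, near the limit for dim probe sets, and its change of -0.26 (-0.61 to 0.09) was -0.11 without CXCL12 replicate 1, -0.16 without untreated replicate 3 and -0.39 without untreated replicate 2.

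H4C12 and H4C13 were the H4 genes with separate groups, named here for that after their values were seen. H4C12 had 8.77, 8.71 and 8.88 on the untreated and 8.57, 8.61 and 8.59 on the CXCL12 arrays, a change of -0.20 (95% interval -0.45 to 0.06). H4C13 had 8.55, 8.60 and 8.72 against 8.49, 8.53 and 8.36, a change of -0.16 (-0.42 to 0.10). At the other end, H4C5 and H4C11, whose probe sets were the brightest of the class, had changes of -0.01 and -0.04, and that of H4C5 turned positive after cyclic loess or another quantile normalization (0.02 and 0.01). H4C11 was at -0.02 without untreated replicate 2 or CXCL12 replicate 3. The other 7 tested H4 members ran from -0.10 (H4C15) to -0.05 (H4C1), and H4C1 was at 0.05 without untreated replicate 1.

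Copies that encode the same histone can share probes, which limits how far single members can be told apart. H4C14 and H4C15, duplicated genes on chromosome 1, differed by at most 0.08 on any array, and their changes were -0.07 and -0.10. Without untreated replicate 1 both were above 0, at 0.03 and 0.02, and without CXCL12 replicate 2 they were at -0.14 and -0.19. The duplicated H2AC18 and H2AC19 also differed by at most 0.08, with changes of -0.0054 and -0.01, or 0.04 and 0.06 without untreated replicate 2. By location, the 41 tested members on chromosome 6 had a median change of -0.06 with 29 negative, and the 11 on chromosome 1 a median of -0.04 with 10 negative.

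The 8 members left out as dim were H1-1, H2AC1, H2AC8, H2BC1, H3C3, H3C6, H4C3 and H4C7, and they were not tested. Among them are H2AC1 and H2BC1, whose histones are made in the testis. H1-1 had 4.004, 4.15 and 4.14 on the untreated and 4.33, 4.26 and 4.39 on the CXCL12 arrays, a difference of 0.23 without overlap. H2BC1 and H3C3 also had higher signals on every CXCL12 array, with differences of 0.18 and 0.12, and H4C7 lower ones, with -0.15. The remaining 4 overlapped, with differences from -0.13 (H2AC8) to 0.13 (H4C3). For H3C3 the highest untreated value was 3.034 and the lowest CXCL12 value 3.038. For H4C7 the lowest untreated value was 2.869 and the highest CXCL12 value 2.847. Of all tested probe sets, 5.05% were higher and 4.48% lower without overlap. The share among dim probe sets was not taken, so these separations are not read as a result.

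Genes that make, process and destroy histone transcripts were read from lists of textbook members. Of 31 names listed for histone gene transcription and stem-loop processing, 28 had a probe set and were tested: 0 passed, 16 changes were positive and 12 negative, and the median was 0.03. The names without a probe set include ARS2, an alias of the tested gene SRRT. NFYA, a subunit of NF-Y, had 8.89, 9.14 and 9.04 on the untreated and 9.38, 9.18 and 9.15 on the CXCL12 arrays, a change of 0.22 (limma adjusted p = 0.996). CCNE1, the cyclin E that drives S phase entry, had overlapping arrays (6.44, 7.31 and 6.96 in untreated and 7.26, 6.97 and 7.47 in CXCL12). Its change of 0.33 rested in part on untreated replicate 1, the lowest array, and was 0.10 without it. Leaving out untreated replicate 2 gave 0.53, and leaving out CXCL12 replicate 3 gave 0.21. SLBP, the stem-loop binding protein, had 9.27, 9.10 and 9.37 against 9.20, 9.10 and 8.98, a change of -0.15, or -0.09 without untreated replicate 3 and -0.10 without CXCL12 replicate 3. NPAT, the coactivator of histone genes, had a change of 0.16, or 0.07 without untreated replicate 2 and 0.25 without untreated replicate 1. SLBP and NPAT are named for their roles, outside the rule used for other genes.

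For histone mRNA decay, 18 of 19 names were tested, 0 passed, and 11 changes were positive and 7 negative (median 0.03). LSM7, a ring subunit that binds the ends of transcripts to be degraded, had 8.67, 8.58 and 8.77 on the untreated and 8.51, 8.45 and 8.36 on the CXCL12 arrays, a change of -0.23 without overlap (limma adjusted p = 0.996). MTPAP, a poly(A) polymerase, had a change of 0.17, also without overlap. XRN1 of the same list, with a change of 0.16, did not overlap either. Of all probe sets tested, 4.48% were lower and 5.05% higher without overlap. Histone chaperones and importers, which carry new histones to chromatin, had 20 of 22 names tested and 0 passing, with 10 changes in each direction (median 0.00318). The untested names include CODANIN1, which is not a gene symbol, so that gene was not looked up. CHAF1B, a subunit of the replication-coupled assembly factor CAF-1, had a change of -0.20, or -0.12 without untreated replicate 1. For ASF1B, an H3-H4 chaperone, it was -0.17, or -0.11 without CXCL12 replicate 2.

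Markers of S phase were read because histone transcripts follow it. Of 26 names, 25 were tested, 0 passed, and 11 changes were positive and 14 negative, with a median of -0.02. CDT1, a replication licensing factor, had a change of -0.19, with 8.23 to 8.71 in untreated and 8.15 to 8.32 in CXCL12 arrays, and leaving out untreated replicate 2 gave -0.05 and leaving out untreated replicate 1 gave -0.29. TYMS, thymidylate synthase, had 10.62 to 10.88 against 10.78 to 11.06. Its change of 0.14 was 0.05 without untreated replicate 1, 0.07 without CXCL12 replicate 3 and 0.21 without CXCL12 replicate 2. The groups overlapped for both genes. The summed linear signal of the list ran from 17346 to 19884 in untreated and from 18006 to 19693 in CXCL12 arrays.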

How the data were processed

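There were 6 Affymetrix arrays of Jurkat RNA, 3 per group and 1 for each sample. The authors deposited 1 log2 value per probe set and array. The submitters' processing notes name RMA, which corrects background, normalizes between arrays and summarises probes, and the Transcriptome Analysis Console. Versions and genome build: not given in the sources used here. Values were used as deposited. Detection calls and scan batches were not examined, and precision is limited by the number of arrays.

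Gene names come from the platform annotation, which can be old. Those with a mean below the 25th percentile were left out. The rest were fitted across all probe sets with limma (version 3.58.1, R version 4.3.3; lmFit, then eBayes; two-sided; no covariates), with Benjamini-Hochberg adjusted p-values over all 16086 and a threshold of 0.05. SE and intervals are limma's moderated ones. Classes have counts and medians and no test. The fit was tested on simulated data.

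The members, lists and rules were chosen with earlier results of these data known. In each class, the genes named were the 2 with the highest mean, the 2 tested ones with the lowest change and the 1 with the highest, with all H1 members and the 2 tested genes of smallest p in each of the 4 lists of histone-related genes. The marker lists were not under this rule, and others are named as examples. Both groups carry replicate numbers 1 to 3 with no stated pairing. Deviations of same-numbered arrays correlated at -0.19, -0.11 and 0.11, so the numbers were not taken as pairs. Alternatives were other filters, renormalizations, a replicate block, array weights, another prior, averaged probe sets and leaving out each array. For related genes, gene pairs and shares of all probe sets, leaving out each array was added after seeing the data.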

Additional observations from a re-analysis of the deposited data

How the results depend on the processing

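In each of the 16 settings run, the main one included, 0 members passed the adjusted threshold. The unadjusted threshold likewise gave 0 lower and 0 higher in the main setting. Array weights and the trended robust prior gave 1 member each below an unadjusted p of 0.05. Leaving out untreated replicate 2 or CXCL12 replicate 2 gave 3 and 2, and all of these were lower. Of all probe sets, 4.73% were below this limma threshold in the main setting. As shares of all probe sets, 2.01% were below it and lower, and 2.72% below it and higher. The share of all probe sets in the other settings was not taken. The replicate block gave 0 called. It cannot alter a log2 change when each replicate number occurs in both groups, so its medians and its 40 negative members were fixed beforehand. Of the 53 tested members, 24 had a negative change in all settings in which they were tested, 2 a positive one (H2AC11 and H3C1) and 27 changed sign in at least 1. Other filters, the block, the other prior and averaged probe sets leave the members' changes as in the main setting. Only the renormalizations, array weights and left-out arrays could turn a sign.

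Members with separate groups numbered 3 lower and 1 higher after another quantile normalization, and 4 lower and 1 higher after cyclic loess. After median centring 6 were lower and 0 higher. With no filter, 6 of 61 were lower and 3 higher, the latter being the dim H1-1, H2BC1 and H3C3. Shares of all probe sets with separate groups were not taken in these settings. In the main setting they were 4.48% lower and 5.05% higher. Over all probe sets, 2 were called in the main setting, 1 with no filter, median centring or cyclic loess, and 4 with array weights. When each array was left out, these counts ran from 5 to 14 lower, 0 to 3 higher, and 1 to 2 called. Over all probe sets, 7.84% to 11.1% were then lower and 8.45% to 13.3% higher, since 2 arrays against 3 separate more often. Members stood lower in 26.4% without untreated replicate 2, beside 9.41% of all probe sets. This was 24.5% beside 11.1% without CXCL12 replicate 2, and 20.8% beside 8.46% without CXCL12 replicate 1. It was 15.1% beside 10.3% without untreated replicate 3, and 13.2% beside 9.61% without untreated replicate 1. Without CXCL12 replicate 3 it was 9.43% beside 7.84%. Negative changes numbered 32 to 44, lowest without CXCL12 replicate 3. Class medians ran from -0.0702 to 0.0923 in H1, -0.0650 to -0.00915 in H2A, -0.111 to -0.00522 in H2B, -0.0946 to 0.0318 in H3 and -0.186 to -0.0330 in H4.

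Among the 27 members that changed sign are these named ones, with main changes of up to 0.11 (H2BC12) and none past the threshold. Signs turned for H2AC13 (0.0141) and H4C5 (0.0146) after quantile normalization and for both after cyclic loess (0.00453 and 0.0151). With array weights they turned for H1-3 (-0.0107) and H2AC14 (-0.0015). With arrays left out, changes ran from -0.0702 to 0.145 for H1-3, -0.00793 to 0.129 for H1-4, -0.0328 to 0.158 for H1-6, -0.0959 to 0.0334 for H2AC13, -0.0156 to 0.106 for H2AC14, -0.00742 to 0.215 for H2BC12, -0.129 to 0.0383 for H3C11 and -0.0442 to 0.0048 for H4C5. The causes were not tested.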
